A study of Sus scrofa domesticus with 30 samples.

Results

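The genes described are 9 transcription factors of female tract patterning and of the endometrial stroma: HOXA9, HOXA10, HOXA11, HOXA13, MSX1, MSX2, EMX2, HAND2 and FOXL2. They were chosen by name, and all 9 were found, once each, among the 28224 entries of the mRNA table. The tissue was endometrium, the lining of the uterus, taken near the middle of the uterine horn of 15 pregnant gilts (young female pigs of crossbred Landrace, Yorkshire and Duroc stock) on pregnancy day 13. The groups were 7 low iCrit and 8 high iCrit gilts. The immunocrit (iCrit) is a blood measure of the immunoglobulin that a newborn piglet has absorbed, and it stands for colostrum intake. Gilts were placed in their group on the first day of postnatal life, and all of them later received the same feed, went through at least 1 normal estrous cycle and were inseminated. Per the labels, 1 further low iCrit animal was not pregnant and was removed. The labels give no litter, sire or batch. The study asked whether a shortage of early milk-borne (lactocrine) signals is followed by differences in the adult endometrium.

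HOXA genes of the posterior end of the cluster are expressed in order along the embryonic female tract, with HOXA9 in the prospective oviduct, HOXA10 in the uterus, HOXA11 in the lower uterus and cervix and HOXA13 in the upper vagina, as worked out mainly in mice. HOXA10 and HOXA11 stay on in the adult endometrium, where mouse uteri without them do not support implantation. MSX1 and MSX2 are homeobox repressors that mark the receptive uterus in mice, EMX2 is a homeobox factor needed for the urogenital tract to form, HAND2 is a stromal basic helix-loop-helix factor that acts below the progesterone receptor, and FOXL2 is a forkhead factor best known from the ovary.

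From each gilt, 1 library of poly(A)-selected mRNA and 1 of small RNA were sequenced. Values are the authors' normalized expression values, linear and without a unit of their own, with a floor of 1. The worth of 1 read pair, read from the spacing of low values, put the depth of the mRNA libraries at 14.6 to 31.7 M read pairs (M, 1e6) in low and 11.8 to 19.8 M in high iCrit animals. The miRNA libraries held at least 12.7 M reads by the same estimate. On the first principal component of the log2 values (21.6% of the variance) 4 libraries stood apart, at 0.36 to 0.43 against -0.32 to 0.03 in the other 11. They were low iCrit replicates 1 and 6 and high iCrit replicates 4 and 6, so both groups held them, and results without these 4 are given where they touch a value. Of the markers of endometrial tissue, all 14 stromal and 9 of 10 epithelial ones were tested, and KRT7, a keratin, was listed at the floor in every library.

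Of the 9 genes, 6 had a higher and 3 a lower value in low than in high iCrit endometrium, and 0 of the 9 passed the test across all entries. The test was limma on log2(value + 1), two-sided, with Benjamini-Hochberg adjustment over 16819 entries. It called 0 entries (0% of those tested), while 1200 (7.13%) had an unadjusted p under 0.05. Of these, 455 (2.71% of the entries tested) had the higher value in low iCrit gilts and 745 (4.43%) the lower. HOXA10 was the 1 gene of the 9 with an unadjusted p under 0.05. The median log2 difference was 0.29 over the 9 genes and -0.01 over all entries tested, of which 8131 (48.3%) had a difference above 0. The smallest adjusted p was 0.6995 among the 9 genes and 0.672 among all entries. In endometrium taken as a whole, fewer cells of a type and less RNA per cell cannot be told apart.

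**Figure D1:**
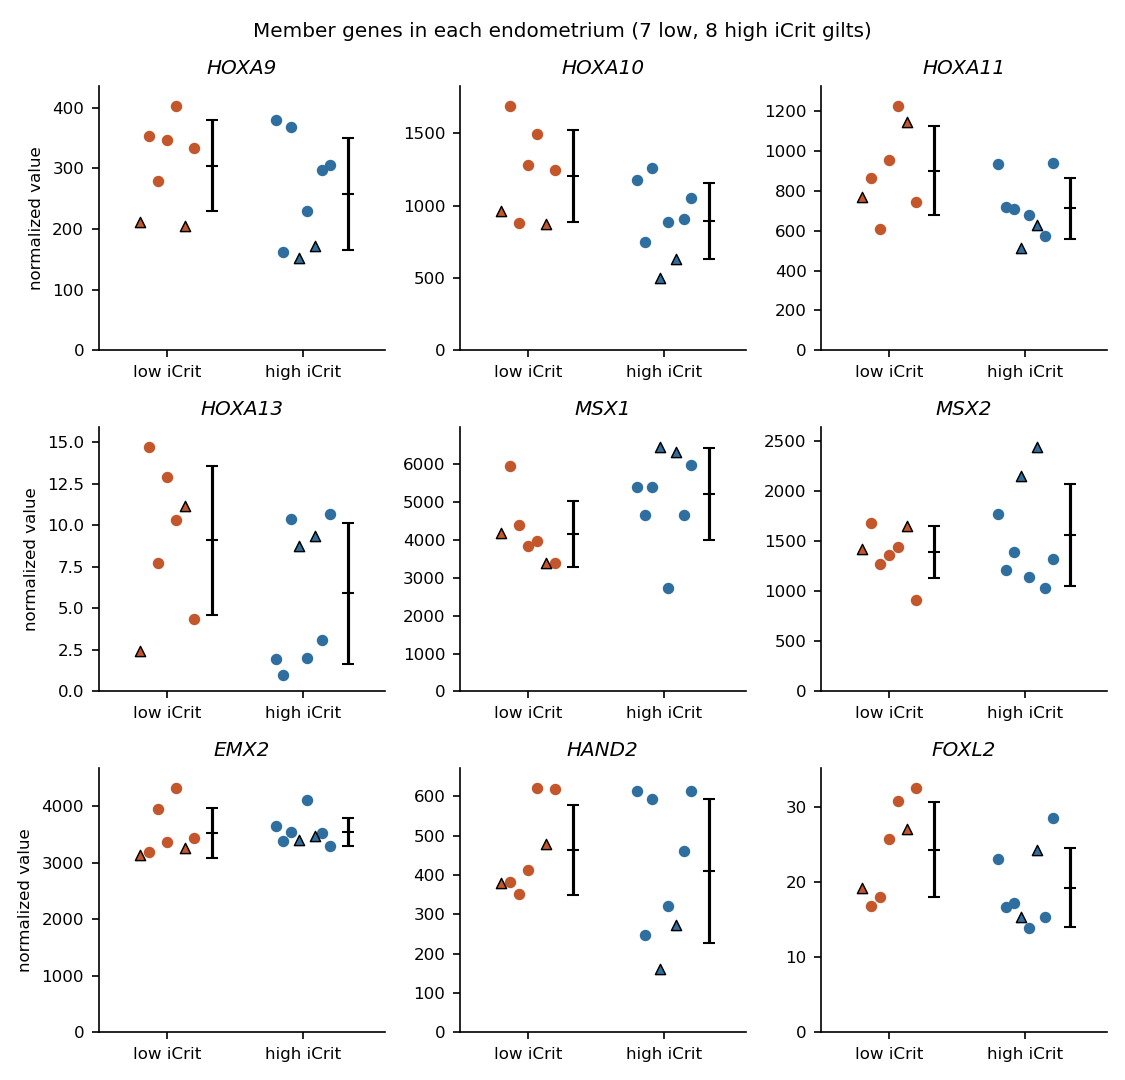
Normalized expression value (vertical axes, linear, starting at 0) of each of the 9 genes in low iCrit (left, orange) and high iCrit (right, blue) endometrium; each point is 1 animal, triangles mark the 4 libraries apart on the first principal component, and bars give the mean ± SD (n = 7 and 8). The groups overlapped for every gene, with 3 low iCrit animals above all high iCrit animals for HOXA10, HOXA11 and HOXA13.

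HOXA10, the uterine member of the cluster and a regulator of endometrial receptivity, had values between 875 and 1690 in low iCrit gilts (median 1245), against 502 to 1259 in high iCrit gilts (median 898). The groups overlapped, but low iCrit replicates 2, 5 and 4 lay above every high iCrit gilt, and high iCrit replicates 4, 6 and 2 lay below every low iCrit gilt. HOXA10 averaged 1203 ± 316 in the low iCrit and 895 ± 262 in the high iCrit group (SD; n = 7 and 8). The log2 difference was 0.44 ± 0.20 (SE), a 1.36-fold higher level with a 95% interval from 1.01 to 1.84. limma gave an unadjusted p of 0.0445 and an adjusted p of 0.6995, and an exact two-sided permutation over the 6435 splits of the animals into 7 and 8 gave p = 0.0639. The 4 libraries apart, high iCrit replicates 4 and 6 among them, held HOXA10 at 502 to 962. The other 11 held it at 745 to 1690. Without the 4 the log2 difference was 0.38 (limma adjusted p = 0.456).

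HOXA11, which lies beside HOXA10 and acts with it in the endometrial stroma, stood between 607 and 1226 in low iCrit gilts (median 863), against 513 to 936 in high iCrit gilts (median 694). In the low iCrit group 6 of 7 gilts exceeded the mean of the high iCrit group, and low iCrit replicates 5, 6 and 4 were the highest of all 15. HOXA11 averaged 900.4 ± 222 in the low iCrit and 711 ± 154 in the high iCrit group (SD; n = 7 and 8), which differed by 0.33 ± 0.17 in log2 (SE; limma adjusted p = 0.719, exact permutation p = 0.0771). The difference was 0.20 without the 4 libraries apart, of which low iCrit replicate 6 was the second highest for this gene and high iCrit replicate 4 the lowest.

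HOXA9, patterned to the oviduct in the embryo, ranged over 206 to 404 in low iCrit gilts (median 333), against 152 to 379 in high iCrit gilts (median 264). Both groups spanned most of the range, and low and high iCrit animals were mixed at its upper end. HOXA9 averaged 304.9 ± 75.0 in the low iCrit and 258 ± 92.2 in the high iCrit group (SD; n = 7 and 8), and low minus high was 0.28 ± 0.24 in log2 (SE; limma adjusted p = 0.840, exact permutation p = 0.260). The 4 libraries apart held HOXA9 at 152 to 212, and the other 11 at 162 to 404, with 1 of the 11 (high iCrit replicate 2) below the highest of the 4. The log2 difference was 0.29 without the 4, which belong to both groups, and 0.19 without high iCrit replicate 4 alone.

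HOXA13, the vaginal member, was barely detected. Its values ran from 2.41 to 14.7 in low iCrit gilts (median 10.3), against 1 to 10.7 in high iCrit gilts (median 5.92), and high iCrit replicate 2 was at the floor. In read pairs this was 1 to 12 in low and at most 6 in high iCrit gilts, few enough for counting error to limit the precision. HOXA13 averaged 9.08 ± 4.49 in the low iCrit and 5.90 ± 4.25 in the high iCrit group (SD; n = 7 and 8). The log2(value + 1) difference of 0.69 ± 0.47 (SE; limma adjusted p = 0.793, exact permutation p = 0.180) turned on the pseudocount. It was 0.27 with a pseudocount of 10 and 0.85 with a pseudocount of 0.1. With the pseudocount of 1 it was 1.16 without the 4 libraries apart.

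**Figure D2:**
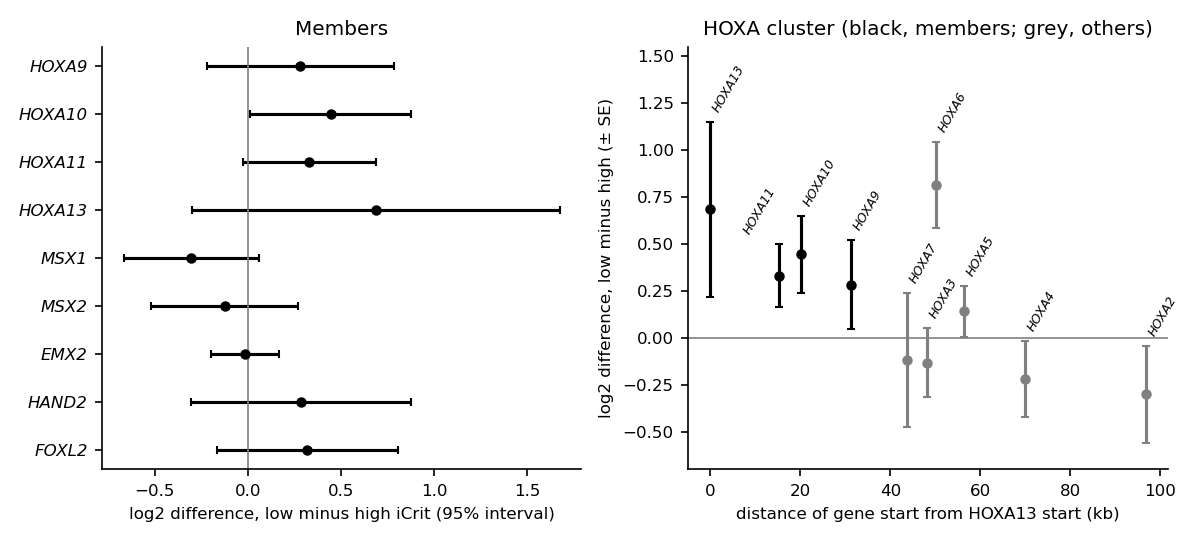
Left, the log2 difference of each of the 9 genes, low minus high iCrit, with its 95% interval from limma; right, the same difference with its SE for 10 HOXA genes by the distance of each gene's start from that of HOXA13 in kb (black, the 4 HOXA genes described here; grey, the other 6). The interval of HOXA10 (0.01 to 0.88) was the only one of the 9 that did not reach 0, and HOXA13 had the widest interval (-0.30 to 1.67).

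The 4 HOXA genes lie next to each other at one end of the HOXA cluster on chromosome 18 (Sscrofa11.1, plus strand), and 6 other genes of the cluster were set beside them. HOXA13 is at 45373340 to 45379046, HOXA11 at 45388523 to 45392190, HOXA10 at 45393525 to 45403259 and HOXA9 at 45404594 to 45411512. All 4 had a positive log2 difference, while among the other 6 genes the differences were -0.12 for HOXA7, -0.13 for HOXA3, 0.81 for HOXA6, 0.14 for HOXA5, -0.22 for HOXA4 and -0.30 for HOXA2. HOXA6 averaged 552 ± 138 in the low iCrit and 321.5 ± 101 in the high iCrit group (SD; n = 7 and 8), with 5 of 7 low iCrit gilts above every high iCrit gilt and an adjusted p by limma of 0.672. The annotated span of HOXA3 covers HOXA6, HOXA5 and HOXA4, so reads of these genes may be shared. An entry that overlaps HOXA10 (LOC102159438), one that overlaps HOXA9 (LOC106506841) and one that overlaps EMX2 (LOC102164998) were at the floor in every library.

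MSX1 was the gene of the 9 with the most negative difference. Its values lay between 3387 and 5950 in low iCrit gilts (median 3976), against 2727 to 6464 in high iCrit gilts (median 5407). In 6 of 7 low iCrit gilts MSX1 was below the high iCrit mean, the exception being replicate 2 at 5950, while the lowest value of all was in high iCrit replicate 5. MSX1 (chromosome 8, 5628381 to 5632375, minus strand) averaged 4165 ± 873 in the low iCrit and 5207 ± 1210 in the high iCrit group (SD; n = 7 and 8), which differed by -0.30 ± 0.17 in log2 (SE; limma adjusted p = 0.7499, exact permutation p = 0.117). Without the 4 libraries apart, of which high iCrit replicates 4 and 6 had the highest MSX1 values of the study, the difference was -0.14.

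MSX2, the paralogue that can stand in for MSX1 in the mouse uterus, stood at 914 to 1681 in low iCrit gilts (median 1420), against 1036 to 2443 in high iCrit gilts (median 1358). The low iCrit median was the higher of the 2, although the mean was lower, and high iCrit replicates 6 and 4 lay far above the rest at 2443 and 2147. MSX2 (chromosome 16, 49765587 to 49771745, minus strand) averaged 1391 ± 257 in the low iCrit and 1559 ± 511 in the high iCrit group (SD; n = 7 and 8). The log2 difference was -0.12 ± 0.19 (SE; limma adjusted p = 0.917, exact permutation p = 0.5395), and it was 0.02 without the 4 libraries apart. Leaving out 1 animal at a time put it between -0.20 (without high iCrit replicate 7) and -0.023 (without high iCrit replicate 6). All 4 of those libraries had an MSX2 value of 1420 or more.

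EMX2 varied least of the 9 genes between animals. It ranged over 3143 to 4330 in low iCrit gilts (median 3363), against 3294 to 4113 in high iCrit gilts (median 3496), so that the highest of the 15 values was 1.38 times the lowest. EMX2 (chromosome 14, 127649675 to 127656972, plus strand) averaged 3523 ± 446 in the low iCrit and 3545 ± 254 in the high iCrit group (SD; n = 7 and 8). The log2 difference of -0.02 ± 0.09 (SE; limma adjusted p = 0.979, exact permutation p = 0.841) had a 95% interval from -0.20 to 0.16, which corresponds to 0.873 to 1.12 times the high iCrit level. Its sign was not stable across other settings, and it was 0.02 without the 4 libraries apart. Low iCrit gilts lay on both sides, with 3 below and 1 above every high iCrit gilt.

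HAND2, which in mouse stroma holds back fibroblast growth factor signals to the epithelium, had values of 352 to 622 in low iCrit gilts (median 413), against 159.9 to 614 in high iCrit gilts (median 391). The high iCrit group held both the lowest values of the study (replicates 4, 2 and 6) and values close to the highest (replicates 1 and 8). The coefficient of variation was 24.6% in low and 44.6% in high iCrit gilts. HAND2 (chromosome 14, 16460089 to 16462979, plus strand) averaged 463.6 ± 114 in the low iCrit and 410.4 ± 183 in the high iCrit group (SD; n = 7 and 8), which differed by 0.29 ± 0.28 in log2 (SE; limma adjusted p = 0.865, exact permutation p = 0.3615). It was 0.11 without high iCrit replicate 4 alone and 0.05 without the 4 libraries apart.

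FOXL2 was low but present in every library, at 16.8 to 32.7 in low iCrit gilts (median 25.8), against 14.0 to 28.5 in high iCrit gilts (median 17.0). These values rest on 8 to 24 read pairs in low and 5 to 16 in high iCrit gilts. In 4 of 7 low iCrit gilts FOXL2 was above the high iCrit mean, and 2 lay above all high iCrit gilts. FOXL2 (chromosome 13, 79708693 to 79709825, minus strand) averaged 24.4 ± 6.37 in the low iCrit and 19.3 ± 5.27 in the high iCrit group (SD; n = 7 and 8), which differed by 0.32 ± 0.23 in log2 (SE; limma adjusted p = 0.810, exact permutation p = 0.113).

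Some of these genes varied together across the 15 animals. Of the 36 pairs of the 9 genes, 3 passed a permutation test of Pearson's r with 100000 resamples adjusted over the pairs: HOXA9 with HOXA10, HOXA9 with HAND2 and HOXA10 with HAND2. HOXA9 and HOXA10 had r = 0.90 and Spearman's rho = 0.91 (permutation p = 1e-05, the smallest it can give; adjusted p = 0.00036). The relation was present in each group, with r = 0.85 among low (exact permutation p = 0.0222, n = 7) and 0.94 among high iCrit gilts (exact permutation p = 0.000273, n = 8). Without the 2 animals farthest from the HOXA9 median r was 0.86, and it was 0.83 among the 11 libraries that did not stand apart. The annotated spans of HOXA9 and HOXA10 do not overlap, and whether reads of the 2 genes are shared was not tested.

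HAND2, on another chromosome, followed HOXA9 with r = 0.83 and rho = 0.80 (permutation p = 9e-05, adjusted p = 0.00162). Within groups r was 0.39 among low iCrit gilts (exact permutation p = 0.378, n = 7) and 0.956 among high iCrit gilts (exact permutation p = 0.00042, n = 8), and the difference between those 2 values was not tested. Without the 2 animals farthest from the HOXA9 median, r was 0.71 and no longer passed (adjusted p = 0.0943), and among the 11 libraries it was 0.82. HAND2 followed HOXA10 with r = 0.77 and rho = 0.70 (permutation p = 0.00073, adjusted p = 0.00876), with 0.32 among low and 0.95 among high iCrit gilts. Among the 11 libraries that r was 0.56 and did not pass (adjusted p = 0.254), and without the 2 animals farthest from the HOXA10 median it was 0.82.

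**Figure D3:**
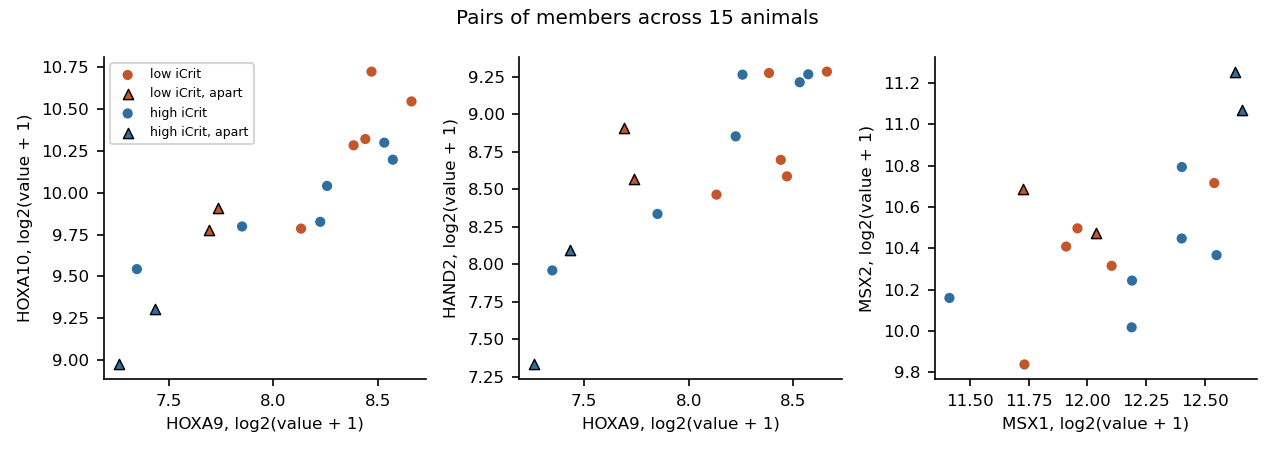
Pairs of genes across 15 animals, each axis in log2(value + 1), with low iCrit in orange and high iCrit in blue and with triangles for the 4 libraries apart: HOXA10 against HOXA9 (left), HAND2 against HOXA9 (middle) and MSX2 against MSX1 (right). HOXA10 rose with HOXA9 in both groups (r = 0.90 over 15 animals, 0.85 among low and 0.94 among high iCrit gilts). For HAND2 with HOXA9, r was 0.39 among low and 0.956 among high iCrit gilts, a difference that was not tested. No line was fitted.

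The other 33 pairs did not pass the adjustment by Pearson's r. By Spearman's rho 5 pairs passed, the same 3 and HOXA11 with FOXL2 and HAND2 with FOXL2 (rho = 0.70 and adjusted permutation p = 0.0359 for both). Next in order of r came HOXA11 with FOXL2 (r = 0.68, adjusted p = 0.0550), HOXA10 with HOXA11 (r = 0.64) and HOXA11 with HAND2 (r = 0.63, adjusted p = 0.0654 for both). MSX1 and MSX2, on different chromosomes, had r = 0.61 (adjusted p = 0.0761), with 0.59 among the 11 libraries. HAND2 and FOXL2 had r = 0.59 (adjusted p = 0.0831). HOXA9 and HOXA11 had r = 0.49, below the value for HOXA9 and HOXA10, although all 3 are neighbours. For EMX2 the values with the other 8 genes ran from -0.36 (MSX1) to 0.28 (HOXA9), and for HOXA13 from -0.12 (EMX2) to 0.39 (MSX2).

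**Figure D4:**
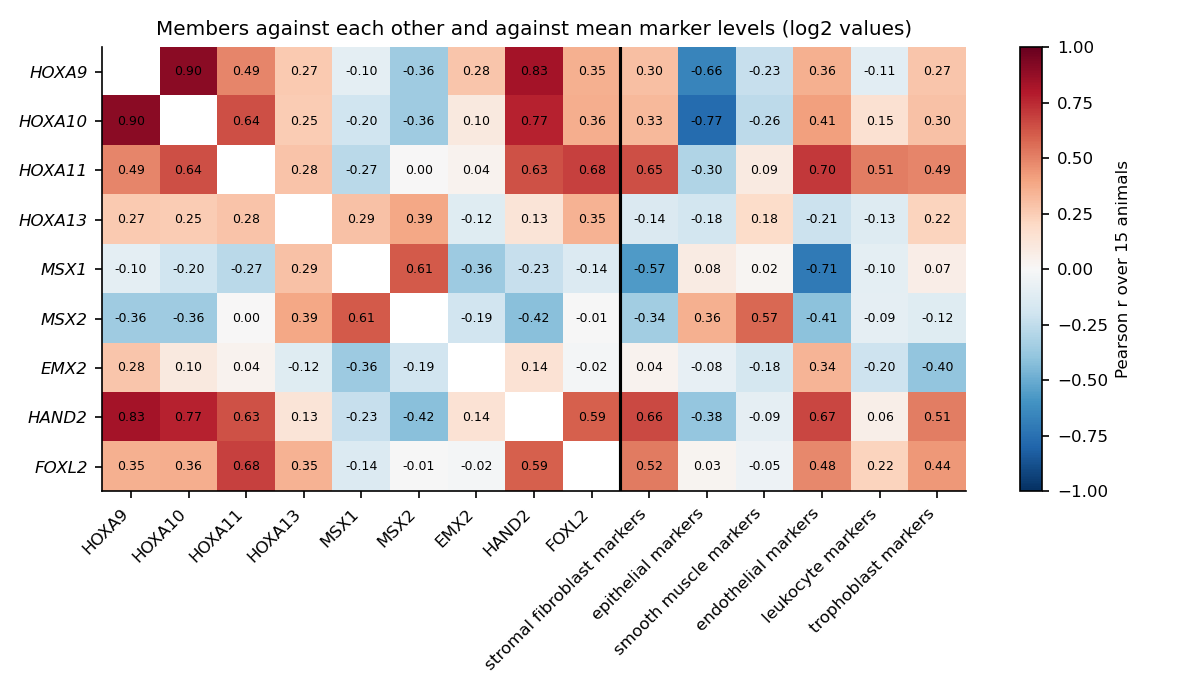
Pearson's r over 15 animals between the 9 genes (left of the black line) and between each gene and the mean log2 level of 6 lists of cell type markers (right of it), coloured from -1 (blue) to 1 (red). HOXA9, HOXA10 and HAND2 form the block of high values, MSX1 pairs with MSX2 at 0.61, and HOXA10 goes against the epithelial markers at -0.77.

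The 9 genes were also set against markers of the cell types that make up the endometrium, and the part of cell composition in the results above was not tested. None of the 54 relations between a gene and a marker list passed the adjustment. The nearest were HOXA10 with epithelial markers (r = -0.77), HOXA11 with endothelial markers (r = 0.70) and MSX1 with endothelial markers (r = -0.71), each with an adjusted permutation p of 0.0529. Among the 11 libraries these were -0.59, 0.41 and -0.53. HOXA9 had r = -0.66 with epithelial markers, and HAND2 had r = 0.66 with stromal and 0.67 with endothelial markers (adjusted p = 0.0666 for all 3). Among the 11 libraries these were -0.23, 0.50 and 0.33. HOXA11 had r = 0.65 with stromal markers (adjusted p = 0.0705), and 0.31 among the 11.

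Of 14 stromal fibroblast markers 10 had a higher and 4 a lower value in low iCrit endometrium (median log2 difference 0.22), and their summed value ran from 244050 to 676570 in low and from 251879 to 370815 in high iCrit gilts. Of 9 tested epithelial markers 1 was higher and 8 lower (median -0.15), with sums of 91151 to 171675 in low and 120973 to 180167 in high iCrit gilts. The endothelial list had 6 higher and 1 lower of 7 (median 0.13; sums of 25358 to 48918 in low and 22084 to 38503 in high), and the smooth muscle list 1 higher and 7 lower of 8 (median -0.19; 9621 to 39342 in low and 10164 to 23348 in high). Of 8 leukocyte markers 5 were higher and 3 lower (median 0.07; 2412 to 5693 in low and 2100 to 7440 in high). All 4 tested trophoblast markers were lower (median -0.28), with sums of 137 to 386 in low and 116 to 3237 in high iCrit gilts. IFNG alone reached 2803 in the high iCrit group, where its median was 15.5. High iCrit replicate 8 had the highest mean log2 level of the trophoblast list. Of the trophoblast markers that were not tested, CGA was above the floor in 6 and CDX2 in 4 libraries. By an exact permutation of the mean log2 level of each list, p ran from 0.266 for the epithelial to 0.872 for the leukocyte list. The stromal mean level, taken relative to the average of all animals, was 0.03 in low and -0.03 in high iCrit gilts, with THY1 (log2 difference -1.47) going against the list. Low iCrit replicate 6 had the highest stromal, smooth muscle and endothelial levels.

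Other HOX cluster genes, of which 28 were tested, had 12 higher and 16 lower values in low iCrit gilts, with a median of -0.07. An unadjusted p under 0.05 was found for 2 of the 28 (7.14%, next to 7.13% of all entries), HOXA6 and HOXD10 (908 ± 213 in the low iCrit and 658 ± 173 in the high iCrit group, SD, n = 7 and 8, difference in log2 0.48 ± 0.19, SE). On the lower side HOXB5 had the smallest p, with 3720 ± 1006 in the low iCrit and 4540 ± 742 in the high iCrit group. Of the 9 cofactors of the TALE homeobox class, which bind DNA together with HOX proteins, 6 were higher and 3 lower (median 0.11). Among them MEIS2 had a log2 difference of 0.30 ± 0.17 and PBX3 of -0.11 ± 0.11 (SE).

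The list of other mesenchymal transcription factors had the highest median of the 6 lists, at 0.26 next to -0.01 over all entries, with 19 of 23 genes higher and 4 lower. PRRX1, a homeobox factor of limb and fibroblast mesenchyme, averaged 472 ± 116 in the low iCrit and 335 ± 49.7 in the high iCrit group (SD; n = 7 and 8), which differed by 0.46 ± 0.17 in log2 (SE; limma adjusted p = 0.672), with 5 of 7 low iCrit gilts above every high iCrit gilt. NR2F2, a nuclear receptor of uterine stroma, had a log2 difference of 0.33 ± 0.14 (SE) and was the other member of the list with an unadjusted p under 0.05 by limma. These 2 of 23 genes were 8.7% of the list, near the 7.13% of all entries. OSR1 had the smallest p on the lower side, with a log2 difference of -0.33 ± 0.30 (SE). Stromal markers leaned the same way, as given above, and the part of stromal content was not tested.

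Of 9 tested regulators of the Müllerian duct, the embryonic tube from which oviduct and uterus form, 7 were higher and 2 lower (median 0.15). The log2 difference was 0.17 ± 0.12 for DACH1 and -0.54 ± 0.43 (SE) for WNT4, a signal of duct formation. WNT4 was low, at 10.2 ± 3.79 in the low iCrit and 19.5 ± 20.6 in the high iCrit group (SD). Its medians were 9.66 and 13.7, and its highest high iCrit value was 69.6. A list of 17 genes acting around HAND2 held hedgehog, bone morphogenetic protein and fibroblast growth factor genes and steroid receptors PGR and ESR1. Of these 17, 12 were higher and 5 lower (median 0.11). The log2 difference was 0.28 ± 0.16 for FGF2, a growth factor, and -0.10 ± 0.24 (SE) for GLI3, a transcription factor of hedgehog signalling. The 12 genes reported downstream of these factors split evenly, 6 higher and 6 lower (median 0.03). LIF, a cytokine of implantation, had a log2 difference of 0.71 ± 0.35, and ITGB3, the integrin subunit reported as a HOXA10 target in human endometrium, of -0.67 ± 0.53 (SE). In these 6 lists 0 of 97 genes were called by limma after adjustment, with 4 (4.12%) at an unadjusted p under 0.05, below the 7.13% over all entries.

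HOX clusters also carry microRNAs. miR-196b-5p, from the HOXA cluster and known to target HOX transcripts, averaged 9545 ± 1609 in the low iCrit and 8985 ± 1228 in the high iCrit group (SD; n = 7 and 8), which differed by 0.08 ± 0.11 in log2 (SE; limma adjusted p = 0.833). limma called 0 of 302 miRNA entries (0%), with 21 (6.95%) at an unadjusted p under 0.05. miR-10b, from the HOXD cluster, was among those 21, with 671519 ± 98028 in the low iCrit and 562826 ± 63249.8 in the high iCrit group, which differed by 0.25 ± 0.10 in log2 (limma adjusted p = 0.518). The log2 difference of miR-10a-5p was 0.15 ± 0.10 (0.043 with quantile normalization), and those of the miR-196a entries were -0.12 ± 0.26 and -0.08 ± 0.21 (SE). miR-196b-5p had r = 0.31 with HOXA9, 0.26 with HOXA10 and 0.53 with HOXA11 over 15 animals, and none of these 3 passed the adjustment (the last with a permutation p of 0.0449, adjusted p = 0.135, and r = 0.32 without the 2 animals farthest from the miR-196b-5p median).

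The genes most alike in pattern were taken as the 3 with the highest r to each of the 9 after the group means were removed, among 8391 genes at or above the median level over the 15 libraries. They are a description with no test. Values of r among the 11 libraries, here and in the next paragraph, were computed without removing the group means. They therefore differ from the first values both in the libraries used and in this step, and the part of each was not tested. For HOXA9 these were UNC45A (r = 0.95), ZNF524 (0.94) and HOXA10 (0.91), with 0.51, 0.34 and 0.83 among the 11 libraries that did not stand apart. For HOXA10 they were UNC45A (0.92), APOD (0.89) and FMO1 (0.87), with 0.36, 0.66 and 0.88 among the 11. HOXA11 was most like FBLN1 (0.86), which is 1 of the stromal markers, CD248 (0.86) and TGFB1 (0.85), with 0.94, 0.86 and 0.71 among the 11.

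For HAND2 the closest were JAM3 (0.89), NR2F2 (0.88) and NDRG1 (0.87), at 0.83, 0.75 and 0.75 among the 11 libraries. MSX1 was most like RASSF7 (0.88, and 0.90 among the 11), followed by CBY1 and PACSIN3. MSX2 was closest to PROB1 (0.94, and 0.88 among the 11), EDC3 and LOC110255172. For EMX2 the values were lower, with PARD6G at 0.79, FAM46B at 0.73 and C9H11orf54 at 0.72. HOXA13 was closest to IQCE (0.82), CNTN4 and IFT88, and FOXL2 to ATP6AP1 (0.87), RFX1 and HSF1, where HOXA13 and FOXL2 themselves rest on few reads. For the 3 genes nearest to FOXL2 the r among the 11 libraries ran from 0.45 to 0.55.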

How the data were processed

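For each assay the authors deposited a table of normalized expression values, taken here as signal, which is linear and never negative and has a floor of 1. The sources used here do not give the scaling, aligner, counting tool or genome build. Gene coordinates equalled those of Sscrofa11.1 in the RefSeq gene table for 27554 entries (97.6%) and all 9 genes. Per the labels' protocols, mRNA was poly(A)-selected, made into libraries with a kit that does not mark strand and sequenced as paired 50 bp reads. Every column matched 1 animal (0 unmapped). Replicate numbers only name animals.

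Entries above the floor in at least 7 libraries were tested (16819 mRNA, 302 miRNA) on log2(value + 1), which understates changes of low genes, with limma 3.58.1 and an intensity trend in R 4.3.3, calls needing an adjusted p under 0.05. The procedure was tested on simulated data. Correlations used 100000 permutations, exact within groups, in Python 3.11.15 with scipy 1.17.1. The most common low value was taken as 1 read pair. Since 82.7% to 86.4% of low values were whole multiples (tolerance 0.05 steps), counts were not rebuilt. Intervals on group differences are 95% intervals of the mean difference. They rest on the variation between animals and do not give the range of single animals.

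The genes, lists and tests were chosen with earlier results of these data known. Named genes were the 9, the gene with the smallest p in each direction of each list, and the 3 most alike to each of the 9; HOXD10 and NR2F2 were named after their values were seen, as were the HOXA cluster genes. Alternatives covered pseudocount, filter, scaling, trend, weights, depth as a covariate and leaving out each animal. Leaving out the 4 libraries apart was added after seeing the data.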

Additional observations from a re-analysis of the deposited data

Results flagged for a closer look

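Among 20 groups of values examined for an animal far from the rest of its group (the 9 genes and miR-196b-5p in each group), 2 held such a value, where chance gives about 1 in 20 groups. MSX1 in low iCrit replicate 2 stood at 5950, and the other 6 low iCrit gilts lay between 3387 and 4398. EMX2 in high iCrit replicate 5 stood at 4113, and the other 7 high iCrit gilts lay between 3294 and 3645. The same animal had the lowest MSX1 value of the study.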

How the results depend on the processing

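No entry was called under any alternative (0 in each; limma gave 939 to 1985 entries at an unadjusted p under 0.05). None of the 9 genes was called under any of them either. HOXA9, HOXA10, HOXA11, HOXA13, HAND2 and FOXL2 kept a positive and MSX1 a negative difference under every alternative run. HOXA10 ranged from 0.33 to 0.52 with 1 animal left out and from 0.31 to 0.47 otherwise, HOXA13 from 0.27 to 1.16 and HAND2 from 0.05 to 0.39 (0.11 without high iCrit replicate 4, 0.15 with quality weights). HOXA9 was 0.19 without high iCrit replicate 4, HOXA11 was 0.18 with quality weights, HOXA13 was 0.44 with depth as a covariate and MSX1 was -0.14 without the 4 libraries apart. HOXA10 had an unadjusted p under 0.05 by limma but 0.0639 by exact permutation. The MSX2 difference turned to 0.017 without the 4 libraries apart, was -0.19 with quality weights, and was -0.028, -0.050, -0.023 and -0.20 when low iCrit replicate 7 or high iCrit replicate 4, 6 or 7 was left out. EMX2 turned to 0.0051 with quantile normalization, 0.0064 with median centring, 0.014 with quality weights and 0.022 without the 4 libraries apart, and ranged from -0.066 to 0.016 with 1 animal left out. The miR-196a entry on chromosome 5 ranged from -0.27 to 0.026 and that on chromosome 12 from -0.21 to 0.024 with 1 animal left out, and the second turned to 0.045 with quantile normalization (the first was -0.034). That normalization gave 0.043 for miR-10a-5p, 0.17 for miR-10b and 0.12 for miR-196b-5p. For miR-196b-5p the log2 values ranged from 0.029 (low iCrit replicate 4 left out) to 0.13 with 1 animal left out. Omitting low iCrit replicate 5 gave 0.039, and omitting high iCrit replicate 4 gave 0.041. Of the pairs that passed, HOXA9 with HAND2 fell short without the 2 farthest animals (r = 0.71) and HOXA10 with HAND2 without the 4 libraries apart (r = 0.56), and 2 to 3 pairs passed by r under the alternatives, against 5 by rho over all animals. The causes of these shifts were not tested. HOXA13 and FOXL2 have no value under the stricter filter (mean of at least 50). No paired analysis was possible because the labels pair no animals. Depth limits HOXA13 and FOXL2 most.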

Other observations

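Split by position in the cluster, HOX genes of paralogue groups 9 to 13 and of groups 1 to 8 leaned in different directions, a split that was chosen after the values were seen and has no test. Of 12 tested genes of groups 9 to 13, the 4 HOXA genes included, 9 had a higher and 3 a lower value in low iCrit animals (median log2 difference 0.31). Among the 8 of them outside the HOXA cluster, 5 were higher and 3 lower (median 0.20), with HOXD13 at 0.83 ± 0.47 and HOXC11 at 0.60 ± 0.32 (SE) on the higher side and HOXC9 at -0.56 ± 0.36 on the lower. HOXD13, HOXC9, HOXC10 and HOXC13 averaged 10.5 or less in both groups, as did HOXA13. HOXC9 was above the floor in 12 libraries, HOXC10 in 11 and HOXC13 in 7. In groups 1 to 8, HOXC8 and HOXD1 were as low. These genes rest on few reads and count as much in the split as well-measured ones. Of 20 tested genes of groups 1 to 8, 7 were higher and 13 lower (median -0.11), with HOXA6 (0.81 ± 0.23) as the member that went furthest the other way. The 6 tested HOXB genes, all from groups 2 to 8, had differences from -0.34 (HOXB5) to -0.01 (HOXB3).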
